A study of Mus musculus with 6 samples.

Results

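The genes described here are 10 that encode proteins of the goblet cell's mucus and secretory granules: Muc2, Tff3, Agr2, Zg16, Fcgbp, Spink4, Clca3, Ccl6, Ccl9 and Klk1. They were taken by name, and all 10 of 10 were found among the 19178 gene symbols of the deposited tables. Crypt cells of the small intestine were taken from C57BL6 mice at 10 weeks of age. They were read by Drop-seq, in which a bead in each droplet tags the 3′ ends of a cell's RNA with a cell barcode and a molecular identifier (UMI). Mice with a knock-out of the prostaglandin receptor gene Ptger4 in the epithelium (labelled knock-out) were compared with mice that carry the Ptger4 flox allele (flox). Each genotype had 3 collections from 2 biological replicates, and the sample codes were read as collections 1 and 2 coming from biological replicate 1 and collection 3 from biological replicate 2. Which promoter drives Cre, and which exons are removed, is not stated in the labels. Nothing there says that the samples of a genotype came from separate animals, so the p-values below measure the spread between these samples, which may be partly technical.

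Goblet cells are secretory cells of the intestinal epithelium that descend from crypt stem cells, and they fill their granules with mucin that swells into the mucus layer after release. Muc2 is the gel-forming mucin of intestinal mucus. Fcgbp, Zg16 and Clca3 are released with it: Fcgbp is a mucus protein that becomes linked to the mucin network, Zg16 a lectin that binds the cell walls of Gram-positive bacteria, and Clca3 a metalloprotease that acts in the mucus. Tff3 is a trefoil peptide of mucosal repair, and Agr2 is a protein disulfide isomerase of the endoplasmic reticulum that is needed to fold the mucin. Spink4 belongs to the Kazal-type serine protease inhibitors, Klk1 is tissue kallikrein, a secreted serine protease, and Ccl6 and Ccl9 are CC chemokines. The name Clca3 is the tables' own. The RefSeq gene list gives it as an older name of Clca1, on chromosome 3 from 145004537 to 145032776 (GRCm38.p6). The tables also hold rows named Clca1 and Clca2, and counts of Clca3, of Klk1 and of the neighbouring chemokine genes Ccl6 and Ccl9 are uncertain where reads were shared with near-identical relatives.

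The kept data were 4890 of 13191 barcodes with at least 300 genes and at most 25% mitochondrial counts, from 473 to 1053 per collection, with a median of 1070 to 1471.5 counts per barcode. Ptger4 itself had 11.8 to 14.1 CPM (counts scaled to the collection's total) in the flox collections and 15.7 to 22.3 in the labelled knock-out collections. It was therefore not lower under the knock-out label. Drop-seq reads 3′ ends, and since the removed exons are not named, these counts do not check the labels. Between 8 and 26 barcode sequences were shared in each of the 6 pairs of collections within 2 sets, and 0 in the 9 pairs across them. The sets were flox 1, flox 2 and knock-out 1 (called run 1 below, an inference from barcodes only) and flox 3, knock-out 2 and knock-out 3 (run 2). The 133 kept barcodes with a shared sequence included 20 of the goblet-like cells, and results were also computed without them. Xist was at 1674 and 1880 counts in the third collections and at 12 or fewer in the others. The biological replicates of each genotype therefore differ in this sex-linked transcript too, and the spread between them is not only technical. The main fits between genotypes had no term for this difference.

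Goblet-like cells were found without using the 10 genes. Kept cells were clustered on other variable genes and named from marker lists without them, which gave 1 goblet-like cluster of 582 cells (11.9% of kept cells). In it 23 of 25 other goblet markers were enriched, and its leading genes included Rep15, Bcas1, Tpsg1 and Guca2a. These cells numbered 111, 50 and 123 in flox collections 1 to 3 and 75, 78 and 145 in the labelled knock-out collections.

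The promoters shown here are those of Agr2 and Fcgbp, which stand near the 2 ends of the order described below, and of Ccl6 and Ccl9, neighbours that differ in it. Ccl9 and Ccl6 lie 9249 bases apart on chromosome 11 and on the same strand. RefSeq's promoter table (GRCm38.p6) held 6 of the 10 genes, Agr2, Fcgbp, Ccl6, Ccl9, Muc2 and Klk1. Each sequence is the 250 bases before the annotated start, 5′ to 3′ on the gene's strand. Capitals mark matches on either strand to CAGCTG (the E-box core of Atoh1), TGTTTAC (forkhead factors such as Foxa1), ACGTG (Xbp1 and Creb3 factors) and CACCC (Klf factors).
Agr2, chr12:35992675-35992924, plus strand: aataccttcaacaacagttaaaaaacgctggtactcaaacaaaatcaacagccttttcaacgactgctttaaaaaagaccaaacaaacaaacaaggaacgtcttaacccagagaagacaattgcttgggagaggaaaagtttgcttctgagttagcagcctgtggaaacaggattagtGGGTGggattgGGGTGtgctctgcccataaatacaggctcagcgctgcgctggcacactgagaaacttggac
Fcgbp, chr7:28070986-28071235, plus strand: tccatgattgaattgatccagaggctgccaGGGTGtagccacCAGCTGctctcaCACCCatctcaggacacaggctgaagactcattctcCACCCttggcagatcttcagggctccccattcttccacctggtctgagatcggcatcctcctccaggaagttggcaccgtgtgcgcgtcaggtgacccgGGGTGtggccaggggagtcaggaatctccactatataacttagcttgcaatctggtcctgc
Ccl6, chr11:83593088-83593337, minus strand: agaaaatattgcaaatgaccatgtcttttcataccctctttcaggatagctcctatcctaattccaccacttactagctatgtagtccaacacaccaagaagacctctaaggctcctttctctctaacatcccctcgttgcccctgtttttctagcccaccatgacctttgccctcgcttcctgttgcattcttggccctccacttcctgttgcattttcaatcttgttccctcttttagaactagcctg
Ccl9, chr11:83578637-83578886, minus strand: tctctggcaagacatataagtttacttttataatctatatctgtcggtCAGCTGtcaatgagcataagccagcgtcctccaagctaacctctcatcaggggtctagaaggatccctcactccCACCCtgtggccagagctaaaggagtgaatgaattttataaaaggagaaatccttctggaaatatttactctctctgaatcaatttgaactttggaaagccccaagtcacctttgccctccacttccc
CAGCTG was found once each before Fcgbp (208 bases before the start) and Ccl9 (202 bases), and CACCC 4 times before Fcgbp, 2 times before Agr2 and once before Ccl9. The Ccl6 window held none of the 4 strings. Over the 6 promoters CAGCTG was present in 3 and CACCC in 5, against 13% and 52.0% of all 32851 promoter windows of this length. TGTTTAC and ACGTG were in 0 of the 6, and in 3.17% and 16.6% of all windows. These are matches of letters only.

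The 10 genes were concentrated in goblet-like cells. Goblet-like cells held 87.7% of all counts of the 10 genes in kept cells, and between 84.0% (Ccl9) and 89.5% (Zg16) of each gene's. Together the genes made up 998 of every 10000 counts in goblet-like cells, against 96.4 in Paneth-like, 33.1 in enteroendocrine-like, 29.6 in cycling-like, 24.7 in enterocyte-like, 12 in stem cell-like and 10.8 in T or NK-like cells. The median goblet-like cell gave 10.7% of its counts to them (quartiles 6.14% and 16.7%, n = 582 cells) and had 9 of the 10 detected. The median over the other 4308 kept cells was 0.0717%. Clusters are not independent of the genes of their own cells, so these levels are given with no test.

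Levels of the 10 genes differed widely within goblet-like cells. They are counts of 3′ tags per 10000 counts, not scaled by transcript length. Tff3 had 328.5 counts per 10000, Zg16 228.6, Spink4 174.0, Agr2 115.0, Fcgbp 46.0, Muc2 43.5, Clca3 39.6, Ccl6 13.1, Klk1 8.43 and Ccl9 1.47. The order was not fixed between neighbours in every collection. Spink4 exceeded Zg16 in flox 3 (135 against 117), and Agr2 exceeded Spink4 in flox 2 (205 against 195). Muc2 exceeded Fcgbp in flox 3, knock-out 2 and knock-out 3 and was below it in the other 3 collections, and Clca3 exceeded Muc2 in flox 3, knock-out 1 and knock-out 3. Over the 6 collections Tff3 lay between 219 and 415 (median 372), Zg16 between 117 and 373 (median 255) and Muc2 between 29.0 and 63.9 (median 42.6). Ccl9 stayed between 1.05 and 2.77 (median 1.38), a range that did not meet that of any other gene of the list. After each cell was thinned to 500 UMIs, so that cells of unequal depth could be compared, 99.3% of 573 goblet-like cells still held a Tff3 UMI, 97.7% a Spink4 UMI, 93.0% Agr2, 80.8% Zg16, 79.9% Muc2 and 8.55% Ccl9.

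**Figure D1:**
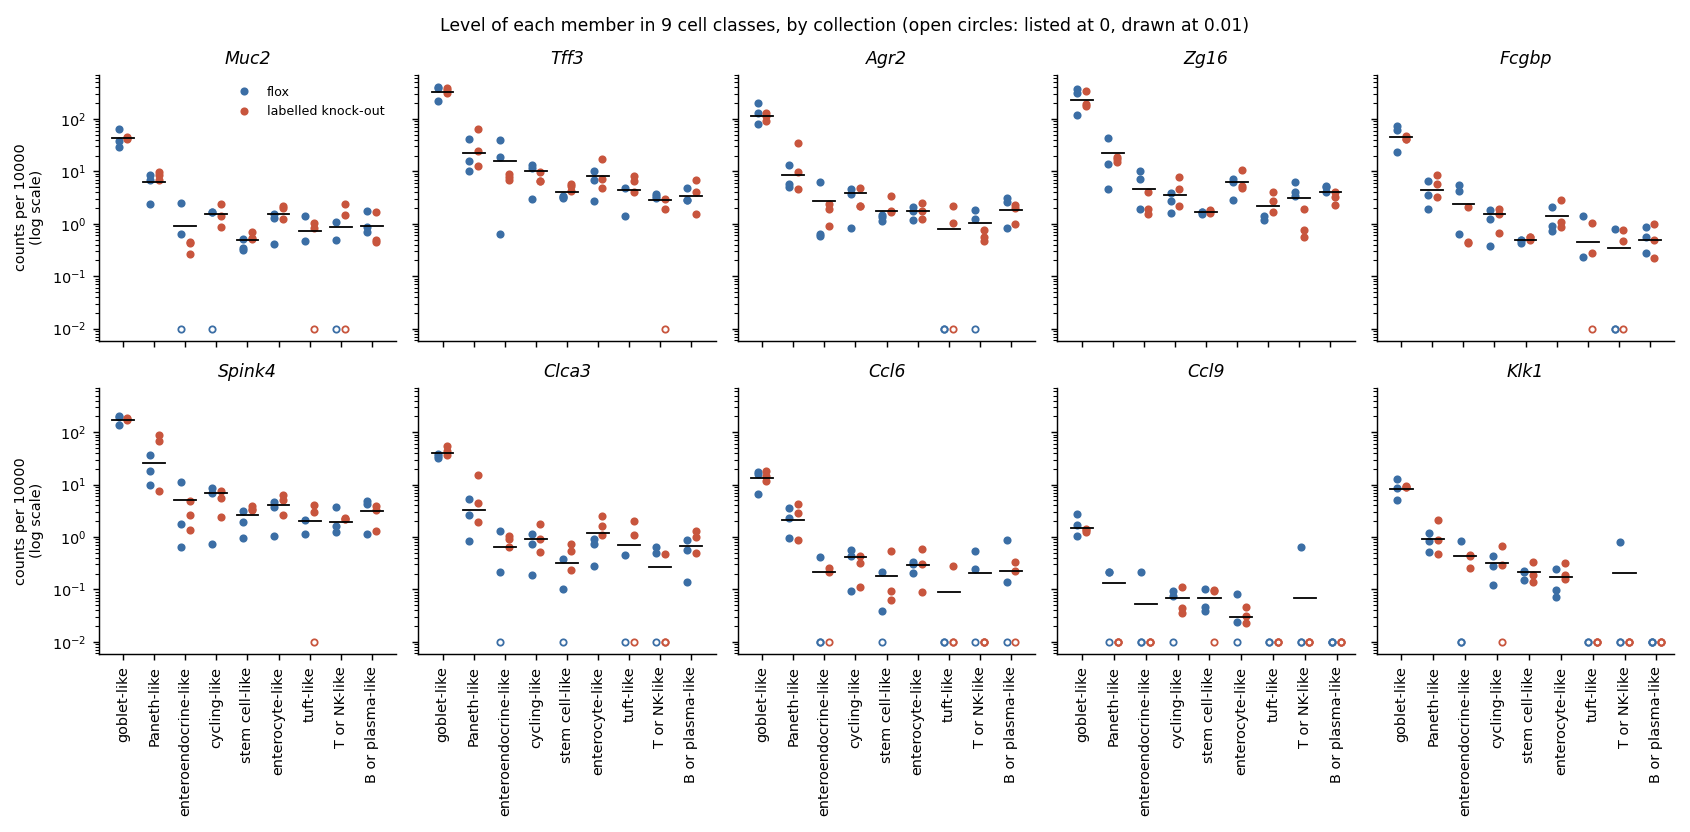
Counts per 10000 of each gene (log scale) in 9 cell classes, with 1 point per collection of at least 5 cells, blue for flox and red for labelled knock-out, and a line at the pooled level. Open circles are values listed at 0, drawn at the foot of the axis. In every panel the goblet-like points lie above all others, and Paneth-like cells come next in the pooled levels, at 22.9 for Tff3 against 328.5 in goblet-like cells.

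Each of the 10 genes had its second highest pooled level in Paneth-like cells, the antimicrobial secretory cells at the crypt base, although for Ccl9 this rested on 4 counts. Goblet-like levels were 14.4-fold higher than Paneth-like levels for Tff3, 13.7-fold for Agr2, 11.9-fold for Clca3, 10.1-fold for Zg16, 7.05-fold for Muc2, 6.85-fold for Spink4 and 6.19-fold for Ccl6. The Paneth-like values varied widely between collections. Spink4 ranged from 7.59 to 88.7 counts per 10000, and Tff3 from 10.4 to 64.5. After thinning to 500 UMIs, 42.3% of 123 Paneth-like cells held a Spink4 UMI and 45.5% a Tff3 UMI, against 12.5% and 11.8% of 136 T or NK-like cells. The median unthinned depth was 850 counts in Paneth-like and 787 in T or NK-like cells. Of 135 Paneth-like cells, 7 gave the 10 genes a share of counts at or above the lower quartile of goblet-like cells. Whether droplets with both cell types account for these levels was not tested.

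In the remaining named classes the 10 genes together had between 10.8 and 33.1 counts per 10000, and the lowest level was that of T or NK-like cells, which should lack them. Barcodes under 100 counts, used here as a measure of free RNA, gave 153 of every 10000 counts to the 10 genes (3763 barcodes). That is well above the 10.8 in T or NK-like and 14.6 in B or plasma-like cells. Flox 2 supplied 2119 of those barcodes, flox 1 only 14 and knock-out 3 only 29. The level in single collections lay between 116 and 239, and in the collections with so few barcodes it rests on few counts. Fcgbp, for example, had 46.0 counts per 10000 in goblet-like and 0.341 in T or NK-like cells (5 counts), a 135-fold difference, and the same comparison gave 117-fold for Tff3 and 49.0-fold for Muc2. Ccl9 was at 0 of 223918 counts in B or plasma-like cells and had 1 count in T or NK-like cells.

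The ratio of one gene to another differed between cell classes. Tff3 had 1.44 counts for each Zg16 count in goblet-like cells (1.11 to 1.87 over 6 collections), 1.21 in barcodes under 200 counts (0.925 to 1.56) and 1.30 in enterocyte-like cells (0.957 to 1.65), where it was below the goblet-like value in 6 of 6 collections. In T or NK-like cells the ratio was 0.911, and it could be computed in 3 collections. It was 2.45 in stem cell-like cells (1.97 to 3.25), where it exceeded both the goblet-like value and that of barcodes under 200 counts in 6 of 6 collections. In cycling-like cells it was 2.92 and exceeded the goblet-like value in 5 of 6 collections, and in enteroendocrine-like cells it was 3.44 and higher in 5 of 5. So relatively more Tff3 than Zg16 was counted in the stem cell-like, cycling-like and enteroendocrine-like classes, at levels of 4.12, 10.4 and 16.1 Tff3 counts per 10000. The T or NK-like level of Tff3 was 2.80. What sets these ratios was not tested. Another pair behaved differently in Paneth-like cells: Spink4 had 1.11 counts for each Tff3 count there (0.593 to 3.60), against 0.530 in goblet-like cells (0.464 to 0.617) and 0.986 in barcodes under 200 counts (0.602 to 1.36).

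**Figure D2:**
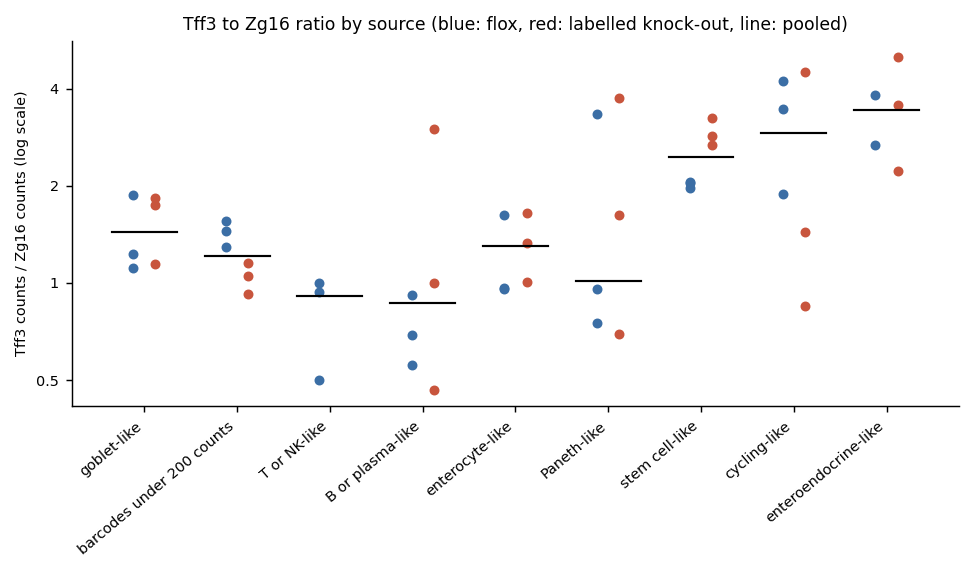
Tff3 counts divided by Zg16 counts (log scale) in goblet-like cells, in barcodes under 200 counts and in 7 other classes, with 1 point per collection where both genes had at least 5 counts, blue for flox and red for labelled knock-out, and a line at the pooled ratio. All 6 stem cell-like points lie at 1.97 or more, above the highest goblet-like point of 1.87.

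Goblet-like cells were then ordered by how much of stem and dividing cell genes they still carried, as a stand-in for maturation. The order uses none of the 10 genes. The index is the summed count of 19 stem cell genes and 30 cell cycle genes per 10000 counts other than those of the 10 genes. Cells of each biological replicate were divided into 3 groups of equal size, called the low, mid and high range, with median indices of 8.19, 26.3 and 69.0. Stem cell markers (with Olfm4, which the index leaves out) had medians of 0, 8.49 and 9.51 counts per 10000 in these ranges. Cell cycle genes had 0, 13.2 and 52.2, so the mid and high ranges differed mostly in cell cycle genes. Maturation and leaving the cell cycle cannot be told apart by this order. The index is a continuum rather than a set of types: 88 of the 582 cells lay within 10% of a boundary. In flox collection 3 the median index was 30.7, above the 20.1 to 26.8 of the other 5 collections.

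All but Ccl9 of the 10 genes were higher in the low range, where progenitor genes are scarce. The size of the difference set the genes in an order, from Agr2, Spink4 and Muc2, with the smallest differences of the 9, to Zg16, with the largest. Counts summed per replicate and range were compared in edgeR's quasi-likelihood test with the replicate as a block, low minus high, adjusted by the Benjamini-Hochberg method over 2900 genes. Of these 20.1% were called, 10% higher and 10.1% lower in the low range, among the latter all 22 tested genes of the index itself. Of the 10 genes 9 passed in the higher direction and 0 in the lower. Their median log2 difference was 1.37, and that of all genes tested was −0.01.

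Zg16, the lectin, had 565, 273, 452 and 298 counts per 10000 in the low range of flox replicates 1 and 2 and of labelled knock-out replicates 1 and 2, in that order. In the high range the same replicates had 128, 87.9, 142 and 90.1. The ranges did not overlap, and the log2 difference was 1.94 (SE 0.10, edgeR adjusted p = 9.8e-17).

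Tff3 was also separated in every replicate. Its low-range levels were 600, 470, 591 and 434 counts per 10000 and its high-range levels 208, 192, 246 and 189 in the same order. The log2 difference was 1.46 (SE 0.09, edgeR adjusted p = 1.2e-14). Fcgbp differed by 1.56 (SE 0.12), Ccl6 and Clca3 by 1.44 each (SE 0.14 and 0.12) and Klk1 by 1.31 (SE 0.14).

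Agr2, the folding enzyme, changed least among the 9. It had 184, 138, 167 and 123 counts per 10000 in the low range and 115, 71.6, 102 and 65.2 in the high range, again in the same order. The low range was higher within each replicate, and across replicates the groups did not overlap. The log2 difference was 0.95 (SE 0.10, edgeR adjusted p = 1.8e-09). Muc2 had 77.3, 56.0, 63.8 and 55.3 in the low range and 33.6, 33.5, 31.6 and 31.1 in the high range, a log2 difference of 1.10 (SE 0.11), the same as for Spink4 (1.10, SE 0.10).

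Ccl9 did not follow the others. The chemokine had 1.31, 0.82, 1.69 and 1.10 counts per 10000 in the low range and 1.73, 1.34, 1.33 and 1.33 in the high range, so that it was higher in the low range in 1 of 4 replicates. The values rest on 6 to 36 counts each. Its log2 difference was −0.04 (SE 0.25, edgeR adjusted p = 0.93). By fold change Ccl9 ranked lowest of the 10 genes in each of the 4 replicates, and Zg16 ranked 9 or 10 in each. The ranks of the genes between them moved more: Muc2 ranked from 2 to 5, Spink4 from 3 to 6, Fcgbp from 5 to 8 and Ccl6 from 3 to 10, so that neighbours in the order were not separated by their replicate spread. The neighbouring Ccl6 was at 13.1 counts per 10000 against 1.47. Of the 4 strings searched, CAGCTG and CACCC matched before Ccl9 and none before Ccl6. Whether this bears on their levels was not tested.

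Dividing the cells of each biological replicate into 5 groups of equal size, then pooling the replicates, gave the shape of the change. From group 1, with the highest index, to group 5, with the lowest, Zg16 had 106, 126, 259, 349 and 451 counts per 10000, and Tff3 had 211, 199, 379, 480 and 541. Both had their largest step between groups 2 and 3, whose median indices were 46.5 and 26.4. The shape was not computed for single replicates or without deep cells, and it was not the same in all of them. In flox replicate 2 the mid range was below the high range for Tff3 (154 against 192) and Zg16 (82.2 against 87.9). In flox replicate 1 it was above (461 against 208, and 398 against 128). Agr2 started at 92.1 and reached 163 in group 4 and 147 in group 5, so that group 1 was at 56.5% of its highest level, against 23.5% for Zg16 and 41.9% for Muc2. Detection differed too: in group 1 100% of 115 cells held a Tff3 UMI, 97.4% an Agr2 UMI and 73.0% a Zg16 UMI, at a median depth of 2251 counts, and in group 5 100%, 99.2% and 89.8% of 118 cells at a median depth of 1645.5. Ccl9 was highest in group 3 (2.02 counts per 10000) and lowest in group 5 (1.07). Its UMIs were found in 31.3%, 34.2%, 23.5%, 28.2% and 16.1% of cells from group 1 to group 5, so detection did not peak in group 3. Of its 267 counts in goblet-like cells, 20 came from 1 cell.

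**Figure D3:**
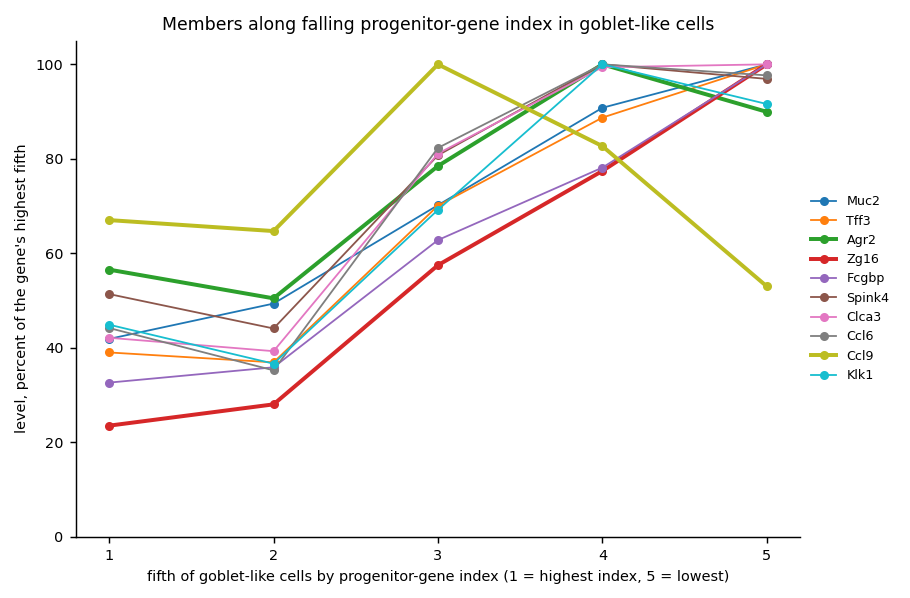
Level of each gene, pooled over replicates, in 5 equal groups of goblet-like cells, as a percentage of the gene's own highest group. The groups run from the highest to the lowest progenitor-gene index. Zg16 begins at 23.5% and Agr2 at 56.5% of their highest groups, and Ccl9 falls to 53.0% in group 5, where the other 9 genes are at 89.9% or more.

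The calls depended on which genes made up the index. With the 30 cell cycle genes alone the same 9 genes passed. With the 19 stem cell genes alone only Zg16 did (log2 0.68), while Tff3 was at 0.21, Fcgbp at 0.18 and Muc2 at −0.14. Stem cell counts were sparse. Even with Olfm4, 46.6%, 80.4% and 88.2% of cells in the low, mid and high ranges of the full index held a UMI of these markers. Cells with equal indices, such as 0, were ranked by their order in the deposited data, so the division by stem cell genes alone is a weak one. Median depth was 1732, 1912 and 2266 counts in the low, mid and high ranges, and 4, 9 and 14 of their cells had over 10000 counts. Without cells over 10000 counts and without shared barcode sequences the same 9 genes passed. Markers of other cells were spread as follows: enterocyte markers made up a median of 61.3, 55.7 and 44.6 of every 10000 counts from low to high, Paneth markers 25.9, 26.6 and 20.8, and at least 1 B or plasma cell UMI was present in 31.6%, 38.1% and 53.8% of cells. T or NK markers had a UMI in 6.22%, 5.67% and 6.15% of cells, and myeloid markers in 2.07%, 4.64% and 7.69%. Their part in the result was not tested. Because the 10 genes took a median of 14.3% of counts per cell in the low and 5.96% in the high range, the scaling in edgeR raised the median gene by 0.15 on the log2 scale relative to plain CPM.

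Some genes of the related pathways were also higher in the low range. The shares over all 2900 genes, 10% higher and 10.1% lower with a median log2 difference of −0.01, stand beside the counts that follow. Among transcription factors of secretory fate, 4 of 10 tested were higher and 1 lower, with a median log2 difference of 0.84. Klf4, a goblet cell differentiation factor, differed by 1.14 and Xbp1, of the unfolded protein response, by 1.01. Creb3l1 and Creb3l4, relatives of a secretory pathway factor, had 0.65 and 0.58 and did not pass (edgeR adjusted p = 0.11 and 0.18). The 1 that was lower was Sox4 (−1.79), a factor of early progenitors, named after its value was seen.

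Of the mucin glycosylation enzymes 5 of 13 tested were higher and 0 lower (median log2 difference 0.59). Galnt7, which starts O-glycans, differed by 0.65 and St3gal4, a sialyltransferase, by 0.67, while Nans, of sialic acid synthesis, was at 0.46 and did not pass (edgeR adjusted p = 0.080). Of the granule and release genes 6 of 14 were higher and 0 lower (median 0.71). Rep15, a Rab15 effector, differed by 1.31, the actin-severing protein gene Scin by 1.31, the ion transporter gene Slc12a8 by 0.99 and Vamp8, a fusion protein of granules, by 0.71. Of the other mucins and secreted proteins 10 of 15 were higher and 2 lower (median 1.13). Guca2a, which encodes guanylin, differed by 1.16, Lypd8 by 1.13 and the membrane mucin Muc13 by 0.67. Pigr, the receptor that carries IgA across the epithelium, was at −0.16 and did not pass. The 2 lower genes, named after their values were seen, were Dmbt1 (−1.45) and Clca4 (−2.51), the latter a relative of Clca3. Of the Paneth markers 4 of 8 tested and of the enterocyte markers 5 of 10 were higher, with medians of 0.61 and 0.65, so that lists of other cell types held passing genes as well.

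Genes with the pattern most like the 10 summed genes were goblet genes. Over 52 sums of at least 20 cells of 1 class and 1 collection, Pearson's r on log2(counts per 10000 + 0.1) was highest for Rep15 (0.94), Tpsg1 (0.93), Ramp1 (0.92), Bcas1 (0.91), Bace2 (0.89), Galnt5 (0.89), Spdef (0.88), Guca2a (0.88), Hgfac (0.87) and Lrrc26 (0.86) among 2961 genes. All but Galnt5 had been used as markers to name the goblet-like cluster, and sums of 1 collection share its library, so this is a description. Rep15 was the most alike gene for Muc2, Tff3, Agr2, Fcgbp, Spink4, Clca3 and Ccl6. Zg16 was most like Tpsg1 (0.90), and so was Ccl9 (0.90). Klk1 was most like Hgfac (0.87), followed by Galnt5 and S100a6. Among the 10 genes, Tff3 and Spink4 had the highest correlation (0.96) and Clca3 and Klk1 the lowest (0.79).

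Between genotypes none of the 10 genes passed the test. In goblet-like cells, 2 labelled knock-out against 2 flox replicate sums were compared by edgeR's quasi-likelihood test over 5682 genes, of which 0.0176% were called in either direction (1 gene, the metallothionein gene Mt1, higher, named after its value was seen). Of the 10 genes 0 passed, and 0 had an unadjusted p under 0.05. Their log2 differences, labelled knock-out minus flox, lay between −0.24 and 0.38 with standard errors of 0.23 to 0.38, so that differences of this size were not resolved. The median of the 10 was 0.09 and that of all genes tested was −0.00084. The count of all genes at an unadjusted p under 0.05 was 98.

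Tff3 in goblet-like cells was at 389, 415 and 219 counts per 10000 in flox collections 1 to 3 and at 388, 356 and 310 in labelled knock-out collections 1 to 3. The genotypes overlapped, and flox 3 was the lowest. The log2 difference was 0.17 (SE 0.29, edgeR adjusted p = 0.99997). Muc2 was at 63.9, 38.9 and 29.0 in flox and at 42.1, 45.4 and 43.1 in labelled knock-out, a log2 difference of 0.07 (SE 0.28). The labelled knock-out values lay inside the flox range.

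Clca3 had the largest positive difference of the 10. It was at 38.7, 35.02 and 32.3 in flox and 54.2, 37.2 and 43.8 in labelled knock-out, means of 35.4 ± 3.22 and 45.1 ± 8.59 (SD, n = 3 collections). The genotypes overlapped only through flox 1 and knock-out 2. The log2 difference was 0.38 (SE 0.23, unadjusted p = 0.11 in edgeR). Ccl6 was at 17.1, 16.2 and 6.57 in flox and 14.8, 18.5 and 11.7 in labelled knock-out, with a log2 difference of 0.31 (SE 0.35). Without flox replicate 1 it was 1.19 (edgeR adjusted p = 0.041), a fit in which flox collection 3 was the only flox sample and was assumed to vary like the others.

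Zg16 differed more between the runs than between the genotypes. It was at 317, 373 and 117 in flox 1 to 3 and 340, 194 and 177 in labelled knock-out 1 to 3. The 3 collections of run 1 (317, 373 and 340) all exceeded the 3 of run 2 (117, 194 and 177). The log2 difference between genotypes was −0.02 (SE 0.38), and within run 1 and run 2 the plain log2 ratios were 0.01 and 0.64. Tff3, Agr2 and Fcgbp also had all run 1 values above all run 2 values, with Fcgbp at 74.96, 60.7 and 48.3 against 23.0, 41.9 and 40.9. The share of all genes split in this way was not computed, so the split is not read as particular to these genes. For Clca3 the log2 ratios within runs were 0.53 and 0.37, for Tff3 −0.04 and 0.57, for Muc2 −0.39 and 0.60 and for Ccl6 −0.18 and 1.09. In flox 3 all 10 genes had their lowest level of the 6 collections. The share of all genes lowest there was not computed, so this is not read as particular to the 10. These levels are pooled counts, so deep cells weigh more. Flox 3 had 4 goblet-like cells over 10000 counts, and the other collections 2 to 9. Its mid index range had less Tff3 (154 counts per 10000) than its low (470) and high (192) ranges. Without barcodes over 10000 counts the genotype differences of the 10 genes in goblet-like cells lay between −0.13 and 0.22. The part of deep cells in the flox 3 levels was not tested. Flox 3 was the only flox collection of run 2 and the only one with high Xist, and its median progenitor-gene index, 30.7, was the highest. Biological replicate, run and Xist level differ together for flox, where they cannot be told apart.

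**Figure D4:**
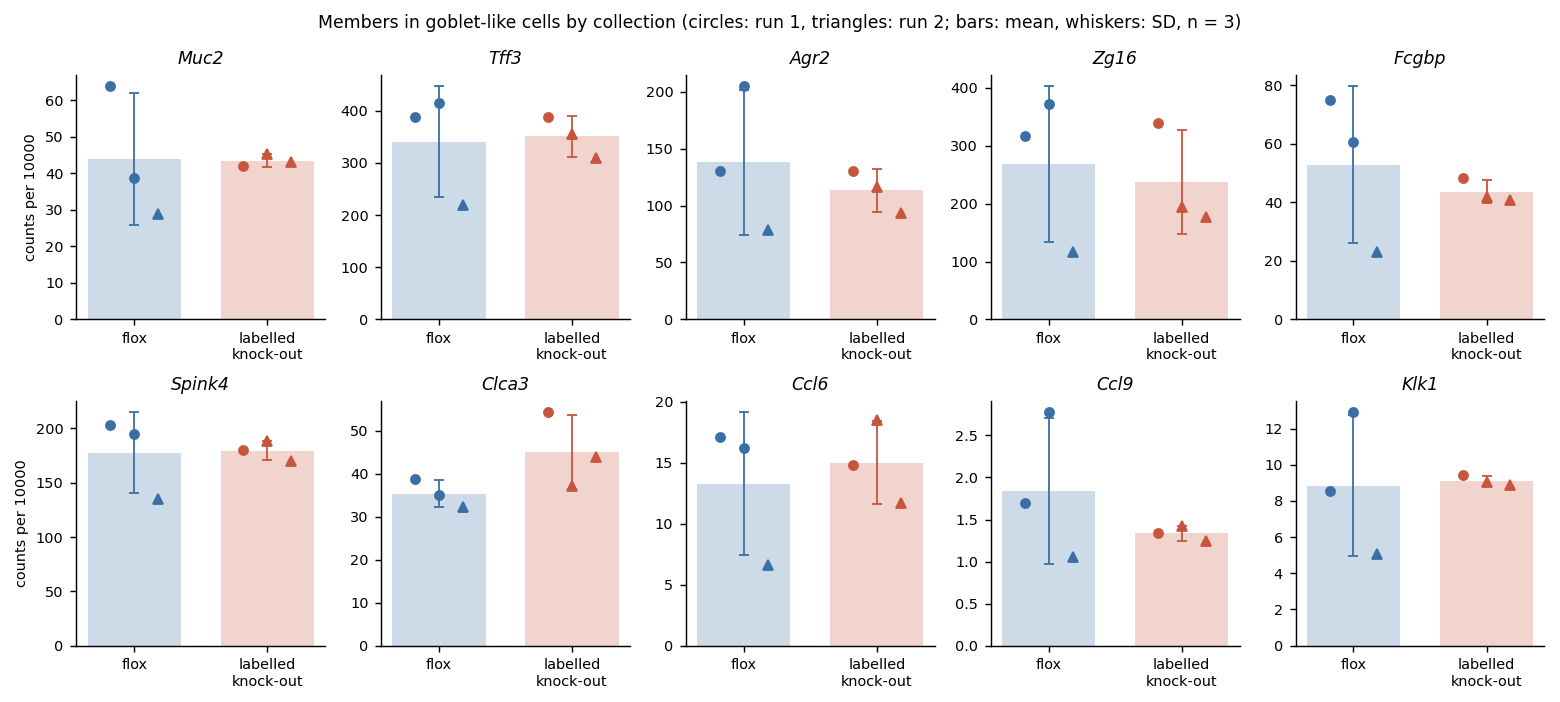
Counts per 10000 in goblet-like cells for each collection, flox in blue and labelled knock-out in red, with circles for run 1 and triangles for run 2. Bars are means and whiskers SD of 3 collections. The flox triangle, collection 3, is the lowest point of every panel, at 219 for Tff3 and 32.3 for Clca3.

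The number of goblet-like cells did not differ beyond its spread either. They made up 10.5% (95% exact binomial interval 8.75 to 12.6), 10.6% (7.95 to 13.7) and 13.3% (11.2 to 15.6) of kept cells in flox collections 1 to 3. In labelled knock-out the shares were 9.95% (7.90 to 12.3), 11.1% (8.87 to 13.7) and 14.8% (12.6 to 17.2). These intervals cover counting error only. The means over replicates were 12.6% ± 3.03 and 11.9% ± 1.93 (SD, n = 2 each). The exact two-sided permutation p was 1, and the smallest that 2 against 2 can give is 0.33. Over collections the exact two-sided permutation p was 0.8, with 0.1 the smallest possible. Within runs the shares were 9.95% against 10.6% and 13.2% against 13.3%, and the difference of 0.72 percentage points was 0.70 without shared barcodes. The 10 genes together took 1.63%, 2.55% and 1.53% of all kept counts in flox and 1.74%, 1.91% and 1.93% in labelled knock-out, and the values overlapped. In bulk sums of this kind, fewer goblet cells and less RNA per goblet cell cannot be told apart.

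In all kept cells together 0 of the 10 genes passed (0.00947% of 10555 genes were called, 1 gene, Mt1, higher). Clca3 had the largest difference of the 10. It was at 489, 651 and 733 CPM in flox and 795, 745 and 911 in labelled knock-out, and the genotypes did not overlap. How many of all genes separate in this way was not computed, so the gap is not read as particular to Clca3. As the sample codes were read, not all collections of a genotype are separate biological replicates. The log2 difference of Clca3 was 0.45 (SE 0.21, unadjusted p = 0.049, edgeR adjusted p = 0.9996). Within runs the log2 ratios were 0.58 and 0.21. The other 9 genes lay between −0.13 and 0.39. The median of the 10 was 0.19 and that of all genes tested was 0.0019. Of the 10 genes 9 were above 0, a count that ranged from 3 to 10 with a sample left out and from 6 to 10 in other settings. The share of all genes above 0 was not computed, so the count is not read as particular to the 10.

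Kept cells that were neither goblet-like, T or NK-like nor B or plasma-like are called other epithelial cells here. They included clusters of 615, 337, 200 and 13 cells that no marker list named, so not all were identified as epithelial. In this group 0 of the 10 passed as well (0.00998% of 10023 genes were called, again Mt1). Clca3 was at 0.676, 0.311 and 1.23 counts per 10000 in flox and 1.02, 1.62 and 1.03 in labelled knock-out, and the genotypes overlapped. The log2 difference was 0.43 (SE 0.29). It was 1.03 (edgeR adjusted p = 0.049) without flox collection 3 and −0.05 to 0.61 when another collection or replicate was left out. The other 9 genes lay between −0.28 and 0.12. Tff3 outside goblet-like cells was at 9.24, 4.70 and 11.3 in flox and 6.17, 9.98 and 9.28 in labelled knock-out, so the low level in other cells showed no separation by genotype. Without shared barcodes, and with run as a term, none of the 10 genes passed in any of the 3 groups of cells (9 of them had enough counts for these fits in the other epithelial cells).

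**Figure D5:**
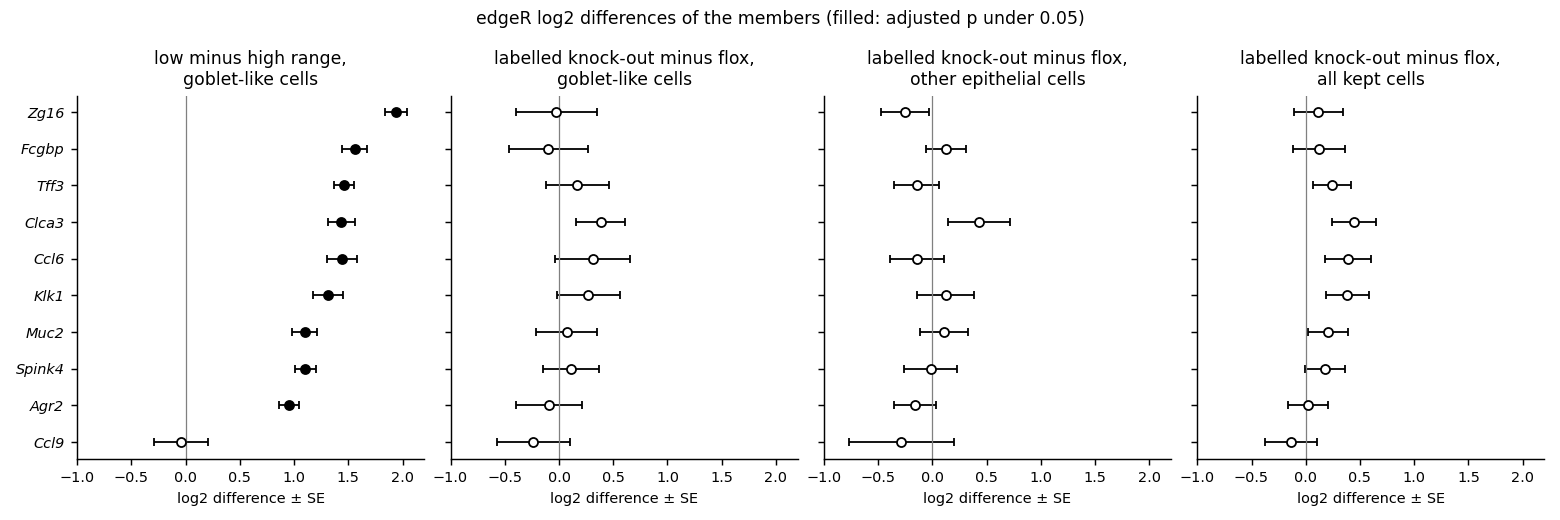
Log2 difference with its standard error for each gene in 4 edgeR fits, from left to right low minus high range in goblet-like cells and labelled knock-out minus flox in goblet-like, other epithelial and all kept cells. Filled points passed an adjusted p of 0.05: 9 genes in the first panel, from 0.95 for Agr2 to 1.94 for Zg16, and 0 in the other 3.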

How the data were processed

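Per the labels, 6 Drop-seq collections of mouse crypt cells were measured, 3 of each genotype. The authors deposited 1 table of UMI counts per collection, genes by barcodes, not normalized. STAR 2.6 and mm10 are named in the submitters' processing notes, and the annotation release, the collapsing of UMIs and the choice of barcodes were not given there. Total counts per collection were 1228337 to 3146909. Barcodes were kept from 300 detected genes upward if no more than 25% of their counts were mitochondrial. No doublet caller was run and none were removed. Kept cells were clustered (scanpy 1.11.5, leidenalg 0.10.2, 2000 variable genes without the 10 described, 30 components, 15 neighbours, resolution 1). A cluster was named only where at least 3 markers of a class were enriched 1.5-fold or more. Further conditions on detection, on the share of the list enriched and on the cluster's leading genes also had to hold. Clusters of 615, 337, 200 and 13 cells stayed unnamed. Counts were summed per biological replicate and tested with edgeR 4.0.16 (R 4.3.3, filterByExpr minimum 10, TMM, adjusted p threshold 0.05), with DESeq2 1.42.0 as an alternative. The edgeR step was tested on simulated data. Shares were compared by exact permutation.

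The 10 genes and all lists were chosen with earlier results of these data known. All 10 are described. Of other genes, the text names the 10 with the highest Pearson r with the summed 10, the most alike gene or genes of each, and up to 4 of each pathway list, those with the highest goblet-like level (1 is not reported here). Any other gene named is said to have been named after its value was seen. Other settings varied normalization, filters, index genes, clustering, barcodes and left-out collections.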

Additional observations from a re-analysis of the deposited data

How the results depend on the processing

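Of 144 alternative fits of the 9 genes that were higher in the low range, 136 kept direction and call, and the 8 that did not all used stem cell genes alone as the index, where Muc2 was at −0.14, Agr2 at −0.023, Spink4 at −0.070 and Ccl6 at −0.13. The cause was not tested. All other alternatives kept the cell cycle genes in the index. Ccl9, which never passed, was at 0.25 with 2 groups in place of 3, 0.11 with cell cycle genes alone, 0.11 in cells of at least 1000 counts, 0.076 with the 10 genes among the clustering features, 0.37 at 600 genes per barcode and −0.25 to 0.046 when a replicate was left out. Genes called between ranges numbered 583, against 195 with DESeq2 (91 higher, 104 lower), 368 with no replicate block (188 and 180), 59 with stem cell genes alone (37 and 22) and 281 to 468 without 1 replicate, which leaves fewer samples.

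Between genotypes the calls were few. In all kept cells 1 gene was called, against 35 with no filter on low counts (27 higher, 8 lower), 3 with the replicate block and 1 to 34 with a sample left out. In goblet-like cells 1 was called, against 2 with the biological replicate block, 2 with collection number as a block and 0 to 8 with a sample left out. In other epithelial cells 1 was called, against 7 with DESeq2, 37 with no filter, 91 with the replicate block (88 and 3) and 0 to 80 with a sample left out. The labels do not tie same-numbered samples of the genotypes to a shared animal, litter or day, so they were not treated as pairs, although collection 3 of both genotypes had high Xist and fell in run 2. Deviations of same-numbered biological replicates correlated at 0.32 in all and 0.16 in goblet-like cells, and those of collections at −0.12, 0.04 and 0.36 and at −0.08, −0.06 and 0.21. With either block none of the 10 genes passed between genotypes (9 of them were tested with the collection block in other epithelial cells). In goblet-like cells Muc2 was at −0.019 without barcodes over 10000 counts, and Zg16 at 0.15 with the replicate block, 0.36 with run as a term and 0.029 at 600 genes per barcode. With a sample left out Ccl6 ranged from −0.24 to 1.19, Muc2 from −0.35 to 0.66, Tff3 from −0.24 to 0.71 and Zg16 from −0.62 to 0.98, the lowest of each without flox collection 3 and the highest without flox replicate 1. Clca3 in other epithelial cells ranged from −0.051 to 1.03. The difference in goblet-like share ranged from −1.42 to 2.09 percentage points over replicates and −0.94 to 1.47 over collections. With the 10 genes among the clustering features, goblet-like cells held 92.8% of their counts. Tff3 was detected in 30.4% of T or NK-like cells at 1000 UMIs and had 33.7 counts per 10000 in barcodes under 200 counts.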

Other observations

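At a finer clustering (resolution 2), chosen for description after the values were seen, goblet-like cells fell into clusters of 362 and 228 cells with median counts of 1495 and 2738. Tff3 had 506 counts per 10000 in the former and 193 in the latter, Zg16 366 and 123, Spink4 260 and 109, and Agr2 175 and 69.2. Ccl9 had 1.85 and 1.15, and the proliferation gene Mki67 1.17 and 7.36. Both clusters held cells of both genotypes, 178 flox and 184 labelled knock-out cells in the former and 108 and 120 in the latter. Ccl9 was thus higher in the cluster with less Mki67, unlike in the comparison of index ranges. Clusters are not independent of the genes of their cells, so no test was made.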
